A study of Mus musculus with 9 samples.

Results

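The 10 genes described here encode the ephrin-A ligands Efna1, Efna2, Efna3, Efna4 and Efna5 and the EphA receptors Epha3, Epha4, Epha5, Epha6 and Epha7. They were chosen by symbol, as every probe set that the platform annotation pairs with one of these symbols alone. This gave 27 probe sets for 10 genes, out of 34945 probe sets with 1 symbol for 18193 genes. Where a gene had several, the brightest one on average across the 9 arrays gave the main value, and the rest are reported beside it. RNA had been taken by laser-assisted microdissection from the optic cup of mouse embryos at E11.5, in mid-gestation, and hybridised to Affymetrix Mouse Genome arrays. The optic fissure samples held cup cells up to 5 cell diameters from the fissure edge, and the other samples came from the nasal and the temporal cup, each at its centre. Each region had 3 arrays, lettered A, B and C and described as biological replicates. Strain, genotype, sex and the number of embryos per sample are not given in the sources used here, so the p-values speak only of the spread between the samples at hand.

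Ephrin-A ligands are held on the cell surface by a lipid anchor, and EphA receptors are receptor tyrosine kinases that bind them when cells touch. Binding often ends in repulsion or in the sorting apart of cells, and signals can run into the receptor-bearing cell and, through partner proteins, into the ligand-bearing cell. In the developing retina, graded EphA receptors along the nasal-temporal axis, opposed by ephrin-A ligands, are known for guiding retinal axons to their places in the midbrain. The transcription factor Foxd1 is known to act upstream of that axis on the temporal side.

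The promoters of 4 members are shown because each stands for a different regional pattern in the values that follow: Efna5 and Epha5 for opposite nasal-temporal differences, and Epha4 and Epha6 for opposite differences between the fissure and the other cup. Each is the 250 bases before the annotated start, read 5′ to 3′ on the gene's strand, from the RefSeq promoter table of GRCm38.p6. All 10 members had an entry. The windows are chr17:62881318-62881567 for Efna5, chr5:84417383-84417632 for Epha5, chr1:77515089-77515338 for Epha4 and chr16:60605532-60605781 for Epha6, all on the minus strand. Capitals mark matches on either strand to a forkhead core (TGTTTA), a homeodomain core (TAATTA, the same on both strands) or a core bound by NK and Hmx homeodomain proteins (CAAGTG). None of these motifs overlaps another.
Efna5: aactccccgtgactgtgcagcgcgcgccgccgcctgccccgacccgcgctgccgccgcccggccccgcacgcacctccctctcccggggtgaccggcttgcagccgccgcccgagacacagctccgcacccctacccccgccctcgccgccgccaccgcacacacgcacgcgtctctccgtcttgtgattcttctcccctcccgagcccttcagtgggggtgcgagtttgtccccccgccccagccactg
Epha5: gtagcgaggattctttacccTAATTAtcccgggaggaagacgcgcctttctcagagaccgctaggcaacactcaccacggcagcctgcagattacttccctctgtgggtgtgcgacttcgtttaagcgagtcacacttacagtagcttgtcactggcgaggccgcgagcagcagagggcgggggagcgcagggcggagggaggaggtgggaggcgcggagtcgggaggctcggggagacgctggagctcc
Epha4: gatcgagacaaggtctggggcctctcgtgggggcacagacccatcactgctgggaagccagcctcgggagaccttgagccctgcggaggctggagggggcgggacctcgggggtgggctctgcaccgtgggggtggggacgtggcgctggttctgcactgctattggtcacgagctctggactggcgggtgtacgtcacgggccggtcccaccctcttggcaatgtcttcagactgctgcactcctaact
Epha6: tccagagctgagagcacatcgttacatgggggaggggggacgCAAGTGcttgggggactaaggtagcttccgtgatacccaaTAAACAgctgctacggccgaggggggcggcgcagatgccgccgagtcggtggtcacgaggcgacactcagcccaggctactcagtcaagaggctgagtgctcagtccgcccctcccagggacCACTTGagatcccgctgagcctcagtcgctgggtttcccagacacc
Epha5 held 1 TAATTA, 230 bases before the start, and 4.84% of all 32851 promoters of this length held that core. Epha6 held 1 TGTTTA, against 12% of all promoters with at least 1 match, and 2 CAAGTG, against 11.6%. Efna5 and Epha4 held none of the 3 motifs in this window. Of the members not shown, Efna1 held 1 TAATTA, 175 bases before a start, Efna3 held 1 CAAGTG, 84 bases before a start, and the rest held none. Guanine and cytosine made up 74.8% of the Efna5 window, 62.4% of that of Epha5, 66% of that of Epha4 and 62.8% of that of Epha6, against a median of 52.4% over all promoters. A match is a description of these letters and not of a bound site.

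The values are linear intensities of probe sets, which the authors had scaled to a common trimmed mean on every array. Changes are differences of log2(intensity + 16), which understate the change of dim genes, and a gene was called at a limma adjusted p below 0.05. Intensities of different probe sets were not compared with each other. On the first principal component (43.4% of the variance) fissure array B lay at -9.40, away from fissure arrays A and C at -38.6 and -43.0. The fissure change of each member's main probe set is therefore also given without it in 1 or more comparisons. Some results of the listed genes are given so too. Other probe sets and the genes most like a member are given with all arrays. The ratio of 3′ to 5′ signal of Gapdh, which rises as RNA breaks down, was 9.34 ± 5.13 in fissure samples, 6.58 ± 1.98 in nasal and 6.19 ± 1.55 in temporal cup (SD, n = 3 each). The log2 signal of a poly-A spike, which is added to the RNA before amplification, was 8.17 ± 0.72 in fissure samples, 7.36 ± 0.53 in nasal and 7.11 ± 0.59 in temporal cup. Calls of the 10 genes that were lost with either as a covariate are given beside the gene. The fissure samples differed in more than these genes. All 13 tested leukocyte markers of 14 were higher in the fissure in each fissure comparison, and their summed intensity was 2977.2 to 3575.1 in the fissure, 548.4 to 825.3 in nasal and 441.6 to 703.5 in temporal cup. Lens markers were higher for 5 of 8 tested genes against the mean of nasal and temporal, with sums of 2519.2 to 3649.0 in the fissure, 682.3 to 735.1 in nasal and 606.9 to 1303.2 in temporal cup. Of 15 periocular mesenchyme markers tested, 5 were higher and 2 lower in that comparison, with sums of 1335.4 to 2622.9 in the fissure, 895.9 to 1405.0 in nasal and 710.1 to 1529.3 in temporal cup. Retinal progenitor markers were lower for 3 of 9, with sums of 6599.4 to 7018.0 in the fissure, 9958.5 to 10606.2 in nasal and 9612.3 to 10562.3 in temporal cup. Fgf15 and Pax6 made up most of that gap, with means of 270.8 and 1564.8 in the fissure, 1748.7 and 3199.1 in nasal and 1693.8 and 2834.5 in temporal cup. Of the 9, Lhx2 and Six3 read higher in the fissure, with changes of 0.62 and 0.20, neither of them called. In the same comparison 1 of 10 endothelial markers was higher, 1 of 6 surface ectoderm markers was higher and 3 lower, 3 of 10 pigment epithelium markers were higher and 4 lower, and 3 of 8 early neuron markers were lower. Over all tested genes 5.72% were higher and 2.88% lower in it. Of 5 erythroid markers limma called 0, or 3 with the letter as a block, and 4 had an unadjusted p below 0.05. With the block, 6 lens, 7 mesenchyme and 2 endothelial markers and 1 progenitor marker were higher, and 5 pigment epithelium and 4 neuron markers were lower. Without fissure array B, 8 mesenchyme, 4 endothelial and 2 erythroid markers, 1 progenitor and 1 neuron marker were higher and 5 pigment epithelium markers lower. Under both, the other counts of these lists stayed as given. No marker of these lists was at 0 on all arrays of a region. The leukocyte markers C1qa, C1qc and Aif1 lay below the intensity cut-off for testing on every nasal and temporal array. So did the mesenchyme marker Eya2 and the surface ectoderm marker Cdh1. All of them entered the test through the fissure arrays alone, which favours a call of higher. Outside the fissure, the leukocyte marker Cd53 and the lens marker Crybb1 exceeded the cut-off on fewer than the 3 arrays needed. They too were tested only because of their fissure values. The surface ectoderm marker Dsp, called lower, entered it through its nasal and temporal values alone. The part of these cells in the values of the ephrin-A and EphA genes was not tested, and in bulk samples fewer cells of a type cannot be told apart from less RNA per cell.

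**Figure D1:**
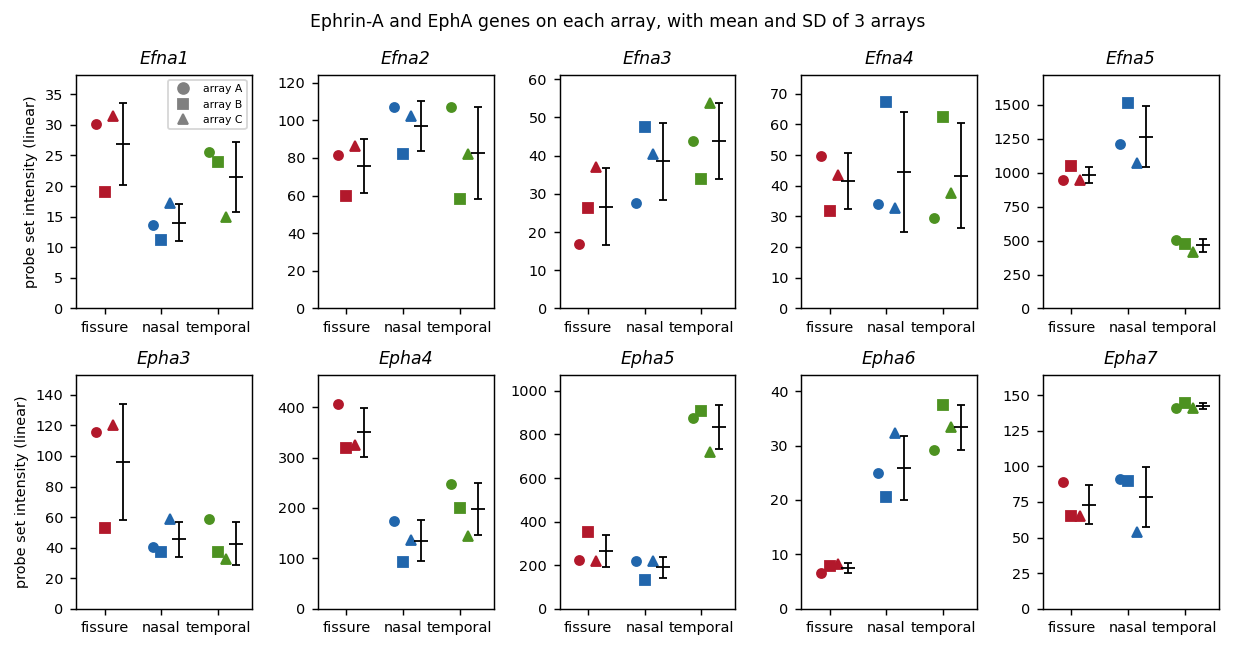
Probe set intensity (linear, vertical axis) of the 10 genes on each array, by region. Points are single arrays with circles for A, squares for B and triangles for C, and the black bars give the mean and SD of 3 arrays. Efna5 was lowest and Epha5 and Epha7 were highest in the temporal cup on every array, Epha4 was highest and Epha6 lowest in the fissure on every array, and Efna1 to Efna4 overlapped between nasal and temporal cup.

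Along the nasal-temporal axis, the ligand Efna5 was higher and the receptor Epha5 was lower in the nasal than in the temporal cup. In this comparison limma called 6 of 12770 tested genes, or 0.047%, with 0.0235% higher and 0.0235% lower in nasal cup. Of the 10 members 2 were called, 1 in each direction. The other called genes were Foxd1, Cyp1b1, Maob and 3110039M20Rik. The last of these, called higher in nasal cup, lay below the intensity cut-off for testing on every fissure and temporal array. It entered the test through its nasal values alone. With the array letter as a block, 17 genes were called, among them all 6. Nasal and temporal arrays did not overlap for 3 of the 10 members, against 6.8% of all tested genes. Of the 84 markers tested over the 9 cell type lists, limma called 0 between nasal and temporal cup, 1 with the block, and 8 had an unadjusted p below 0.05. The 1 gene was Neurog2, a factor that starts neuron formation, which read 73.8, 77.0 and 179.8 in nasal and 207.3, 244.6 and 381.5 in temporal cup (difference -1.27, limma adjusted p = 0.606, or 0.0136 with the block). The early neuron markers summed to 366.6 to 952.2 in nasal and 959.9 to 1227.8 in temporal cup, without overlap. The median difference of the 8 tested was -0.50. Most of the sum came from Atoh7, Neurog2 and Neurod1, with means of 212.9, 110.2 and 78.0 in nasal and 452.5, 277.8 and 188.3 in temporal cup. Gap43, of the same list, ran the other way without overlap, at 150.4, 100.5 and 133.1 in nasal and 52.9, 70.7 and 84.2 in temporal cup. The part of early neurons in the Efna5 and Epha5 differences was not tested.

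Efna5, a ligand known in mouse as a repulsive cue for temporal retinal axons, read 1212.0, 1512.1 and 1071.8 on nasal arrays A, B and C, against 506.5, 477.5 and 415.0 on the temporal arrays. Every nasal array lay above every temporal array. The means were 1265.3 ± 224.9 in nasal and 466.3 ± 46.8 in temporal cup (SD, n = 3 each), a log2 difference of 1.40 (SE 0.17, 95% interval 1.03 to 1.77, limma adjusted p = 0.0111). Only 3 of the 12770 tested genes had a larger nasal-over-temporal difference. Within the letters the difference was 1.23, 1.63 and 1.34 on the log2 scale for A, B and C. With the letter as a block the limma adjusted p was 0.00587. Without the block, the call depended on single arrays. It was lost without nasal array A, nasal array B or any of the temporal arrays A, B and C, with log2 differences of 1.27 to 1.46 and adjusted p of 0.0525 to 0.0650, and was kept without nasal array C. The call was also lost when the nasal and temporal arrays were fitted alone (adjusted p = 0.0582). Averaged with the dim second probe set of the gene, the difference was 0.84 (adjusted p = 0.0821).

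Epha5, a receptor whose graded level in the retina is known to set how strongly axons avoid ephrin-A, showed the opposite order. It read 220.3, 132.8 and 217.2 on nasal arrays A, B and C, against 875.8, 908.1 and 717.2 on the temporal arrays. Every nasal array lay below every temporal array. The means were 190.1 ± 49.6 in nasal and 833.7 ± 102.2 in temporal cup (SD, n = 3 each), a log2 difference of -2.07 (SE 0.23, 95% interval -2.58 to -1.56, limma adjusted p = 0.00769). Foxd1 was the 1 tested gene with a more negative difference. The letters gave -1.92, -2.63 and -1.65 for A, B and C. Without temporal array A or B the adjusted p was 0.0598 or 0.0650, with differences of -2.03 and -2.004. The call held without each of the other arrays, and with the letter as a block (limma adjusted p = 0.0136).

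Epha5 had 3 further probe sets, and all ran the same way. The probe set 1435286_at read 104.8, 87.8 and 143.6 in nasal and 704.6, 814.0 and 622.6 in temporal cup, a log2 difference of -2.53 (SE 0.22, limma adjusted p = 0.00136 over the 23503 tested probe sets, of which 0.0383% were called). On 1444690_at the difference was -1.87 (SE 0.19, adjusted p = 0.00447), and on 1420557_at it was -1.30 (SE 0.22, adjusted p = 0.158). On all 4 the nasal arrays lay below the temporal arrays without overlap. The other Efna5 probe set, 1421796_a_at, read 0.6 to 8.0 on the 9 arrays and was too dim to be tested.

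Epha7, a receptor known in mouse to have truncated forms beside the kinase form, read 91.4, 89.4 and 53.9 on nasal arrays A, B and C, against 140.8, 144.7 and 140.8 on the temporal arrays. The nasal arrays lay below the temporal arrays without overlap, but the difference of -0.77 (SE 0.19, 95% interval -1.20 to -0.35) had a limma adjusted p of 0.606, and of 0.224 with the letter as a block. A second probe set, 1443485_at, overlapped between the regions, with a difference of -0.27 (SE 0.22, adjusted p = 0.9999). Epha4 had a difference of -0.51 (SE 0.24, 95% interval -1.03 to 0.01), Epha6 of -0.24 (SE 0.16, -0.59 to 0.10) and Epha3 of 0.07 (SE 0.27, -0.52 to 0.67). None of the 3 was called, which does not show that they were equal in nasal and temporal cup.

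**Figure D2:**
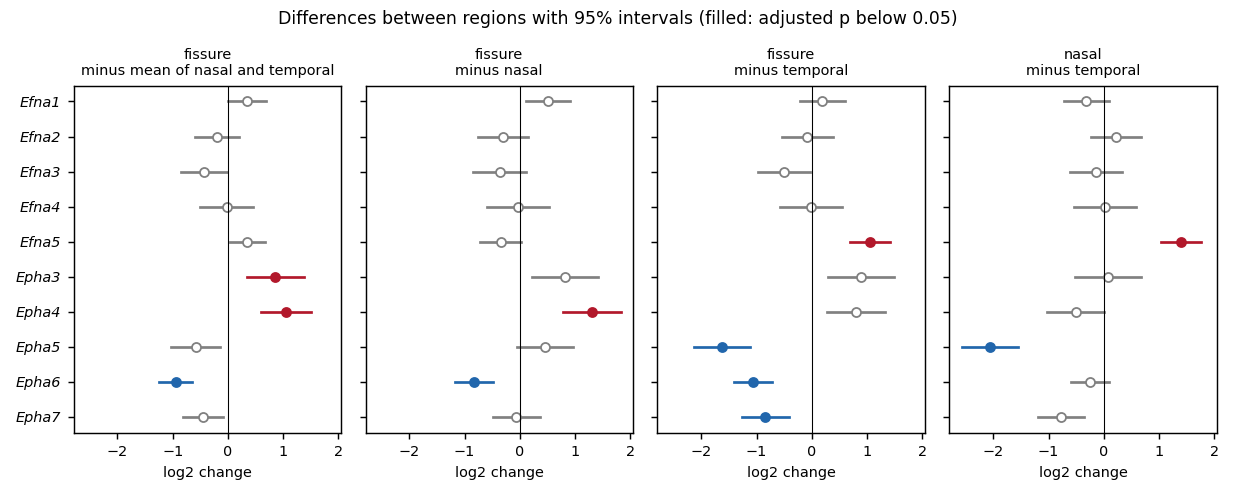
Log2 change (horizontal axis, scale of log2(intensity + 16)) of each gene in the 4 comparisons, 1 panel each. Points are the fitted change, lines its 95% interval, and filled points have a limma adjusted p below 0.05, red for higher and blue for lower in the first-named region. Filled points are Epha3, Epha4 and Epha6 in the first panel, Epha4 and Epha6 in the second, Efna5, Epha5, Epha6 and Epha7 in the third, and Efna5 and Epha5 in the fourth.

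In the fissure, Epha3 and Epha4 were higher and Epha6 was lower than the mean of nasal and temporal cup. In this comparison 8.6% of all tested genes were called, 5.72% higher and 2.88% lower, beside 3 of 10 members, and fissure and other arrays did not overlap for 14.2% of all genes, beside 2 members. With the letter as a block 2172 genes were called, against 1098 without it, and the same 3 members. Against nasal cup alone, 2 members were called, beside 6.37% of all genes, with 4.41% higher and 1.97% lower (814 genes, or 1592 with the block). Against temporal cup alone, 4 members were called, beside 5.36% of all genes, with 3.47% higher and 1.9% lower (685 genes, or 1541 with the block). With the block, 2 members were higher and 1 lower against nasal cup, and 3 higher and 3 lower against temporal cup. Arrays did not overlap for 5 members in each of these, beside 22.5% and 21.7% of all genes. The median change of the 10 members was -0.11 against the mean of both, beside 0.04 over all tested genes. The fissure comparisons share the fissure arrays, so their values are given side by side.

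Epha4, a receptor that binds ligands of the A and the B class, read 406.3, 318.8 and 324.4 on fissure arrays A, B and C, against 175.1, 93.1 and 136.6 on nasal and 247.0, 200.6 and 144.8 on temporal arrays. Every fissure array lay above every other array, and nasal and temporal arrays overlapped. The means were 349.8 ± 49.0 in fissure samples, 134.9 ± 41.0 in nasal and 197.5 ± 51.2 in temporal cup (SD, n = 3 each). The log2 change was 1.05 against the mean of both (SE 0.21, limma adjusted p = 0.00786) and 1.31 against nasal cup (SE 0.24, adjusted p = 0.00682). Against temporal cup it was 0.80 (SE 0.24, 95% interval 0.28 to 1.32), with an adjusted p of 0.0837 without the block and 0.0165 with it. Without fissure array A the change against the mean was 0.94 and the call was lost (adjusted p = 0.0589). Without fissure array B it was 1.11 (adjusted p = 0.0143), with 1.37 against nasal cup (adjusted p = 0.0113) and 0.86 against temporal cup (adjusted p = 0.0740).

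The other Epha4 probe sets also read higher in the fissure. The change against the mean of nasal and temporal was 1.34 on 1439757_s_at (SE 0.24, limma adjusted p = 0.00628, with 5.74% of all tested probe sets called) and 0.83 on 1421929_at (SE 0.21, adjusted p = 0.0435). On 1421928_at it was 0.52 (SE 0.21, adjusted p = 0.205). The first of these read 293.0, 422.0 and 188.7 in the fissure, 103.9, 62.0 and 83.9 in nasal and 126.3, 161.1 and 107.0 in temporal cup, again without overlap. On this probe set fissure array B was the highest, while on the main probe set it was the lowest of the fissure arrays. The last probe set, 1456863_at, was too dim to be tested, at 0.7 to 22.9.

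Epha3, a receptor with high affinity for ephrin-A5, read 115.6, 52.6 and 120.2 on fissure arrays A, B and C, against 40.7, 37.1 and 58.5 on nasal and 58.5, 36.9 and 32.7 on temporal arrays. Fissure arrays A and C lay above all others, and fissure array B lay within the range of the nasal and temporal arrays. The change against the mean of both was 0.86 (SE 0.24, limma adjusted p = 0.0464). Without fissure array B it was 1.18 (adjusted p = 0.00397). Without fissure array A or C it was 0.71 and 0.68, and the call was lost (adjusted p = 0.229 and 0.224). The call was lost as well without nasal array A or B or temporal array B or C, with changes of 0.79 to 0.83 and adjusted p of 0.0797 to 0.0976. With the Gapdh ratio as a covariate the change was 0.61 (adjusted p = 0.0664), and with the poly-A spike it was 0.79 (adjusted p = 0.288). Against nasal cup the change was 0.82 (SE 0.27, adjusted p = 0.114, or 0.0398 with the block and 0.0109 without fissure array B). Against temporal cup it was 0.89 (SE 0.27, adjusted p = 0.0916, or 0.0296 with the block and 0.00807 without fissure array B). A second probe set, 1425575_at, had a change of 0.83 against the mean (SE 0.28, adjusted p = 0.129), and a further 2 were too dim to be tested.

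Epha6, a receptor of the same family found in retina and brain, was lower in the fissure than in both other regions. It read 6.5, 7.8 and 8.2 on fissure arrays A, B and C, against 24.9, 20.6 and 32.3 on nasal and 29.2, 37.5 and 33.5 on temporal arrays. The fissure values lay below the 40th percentile of their arrays (15.7 to 17.5), so Epha6 entered the test through its nasal and temporal values alone. The change was -0.95 against the mean of both (SE 0.14, limma adjusted p = 0.00112), -0.83 against nasal (SE 0.16, adjusted p = 0.00872) and -1.07 against temporal cup (SE 0.16, adjusted p = 0.00190). Its size depends on the constant added before the logarithm: against the mean it was -1.83 with 1 and -0.39 with 64 in place of 16. With 64, the call against nasal cup was lost (adjusted p = 0.0797). The letters gave -0.93, -0.89 and -1.01 against the mean, and without fissure array B the change was -0.96 (adjusted p = 0.00333), with -0.84 against nasal (adjusted p = 0.0155) and -1.08 against temporal cup (adjusted p = 0.00435). It had 1 probe set.

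**Figure D3:**
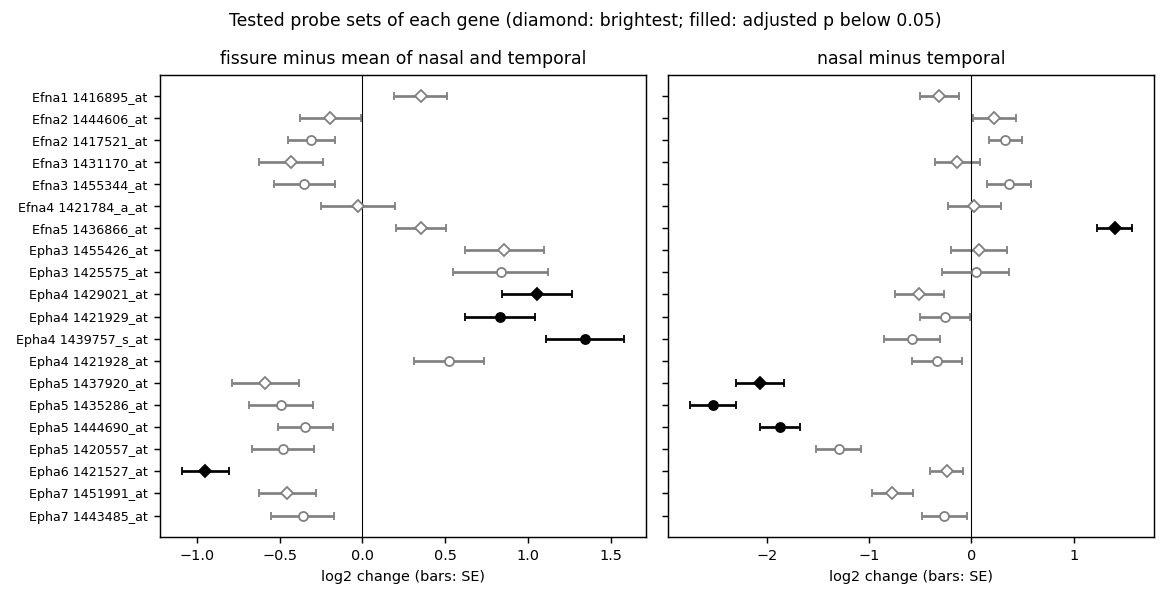
Log2 change (horizontal axis, bars are SE) of the 20 tested probe sets of the 10 genes, for fissure minus the mean of nasal and temporal cup and for nasal minus temporal cup. Diamonds are the probe set used for a gene, circles the others, and filled symbols have a limma adjusted p below 0.05. The 4 Epha5 probe sets run from -2.53 to -1.30 in the right panel, and the 4 Epha4 probe sets from 0.52 to 1.34 in the left panel.

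The genes that differed between nasal and temporal cup were also set against the fissure. Efna5 read 949.6, 1048.3 and 949.0 on fissure arrays A, B and C, below every nasal array (1071.8 to 1512.1) and above every temporal array (415.0 to 506.5). The change was 1.05 against temporal cup (SE 0.17, limma adjusted p = 0.00316) and -0.35 against nasal cup (SE 0.17, 95% interval -0.71 to 0.02, adjusted p = 0.304). Without fissure array B these were 1.01 (adjusted p = 0.00872) and -0.39 (adjusted p = 0.212). The order of the means was nasal, fissure, temporal, and the first pair was not told apart by the test. Averaged over both probe sets of the gene, the change against temporal cup was 0.52 (adjusted p = 0.0521).

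Epha5 read 224.2, 350.3 and 220.8 on fissure arrays A, B and C, below every temporal array (717.2 to 908.1). Its change was -1.62 against temporal cup (SE 0.23, limma adjusted p = 0.00163) and 0.45 against nasal cup (SE 0.23, 95% interval -0.06 to 0.96, adjusted p = 0.340). Fissure arrays A and C lay just above nasal arrays A (220.3) and C (217.2), while fissure array B was the highest of the 6. Within letter B the fissure-minus-nasal difference was 1.30, against 0.02 for A and 0.02 for C. Without fissure array B the change was -1.83 against temporal cup (adjusted p = 0.000844) and 0.24 against nasal cup (adjusted p = 0.534). The other 3 probe sets gave -1.75, -1.28 and -1.13 against temporal cup (adjusted p = 0.00105, 0.00307 and 0.0148), beside 3.62% of all tested probe sets called. Against nasal cup they gave 0.77, 0.59 and 0.17 (adjusted p = 0.0929, 0.138 and 0.792), beside 3.87% called.

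Set against the nasal and temporal mean, which marks the midpoint of both on the log2 scale, Epha5 was at -0.59 (SE 0.20, 95% interval -1.02 to -0.15, limma adjusted p = 0.102) and Efna5 at 0.35 (SE 0.15, 0.03 to 0.67, adjusted p = 0.176). Within letters A, B and C, Epha5 was at -0.93, -0.02 and -0.80, so in letter B it lay almost at the midpoint. Efna5 was at 0.27, 0.29 and 0.50, on the nasal side in the 3 letters. Single arrays decided the Epha5 call: without fissure array B the value was -0.79 (adjusted p = 0.0263), and without nasal array B it was -0.70 (adjusted p = 0.0434).

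Epha7 read 88.7, 65.1 and 65.1 on fissure arrays A, B and C, in the range of the nasal arrays (53.9 to 91.4) and below the temporal arrays (140.8 to 144.7). Its change was -0.84 against temporal cup (SE 0.19, limma adjusted p = 0.0272) and -0.07 against nasal cup (SE 0.19, 95% interval -0.49 to 0.36, adjusted p = 0.902). The first was -0.78 without fissure array B (adjusted p = 0.0488). The call was lost without fissure array C or any of the temporal arrays A, B and C, with changes of -0.85 to -0.78 and adjusted p of 0.0668 to 0.109. Adding the poly-A spike to the fit lost it too, at -0.58 (adjusted p = 0.338). Against the mean of both regions the change was -0.45 (SE 0.17, adjusted p = 0.130), and without nasal array C it was -0.55 and passed (adjusted p = 0.0440). On 1443485_at the change against temporal cup was -0.49 (SE 0.22, adjusted p = 0.310). A further 2 probe sets were too dim to be tested.

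**Figure D4:**
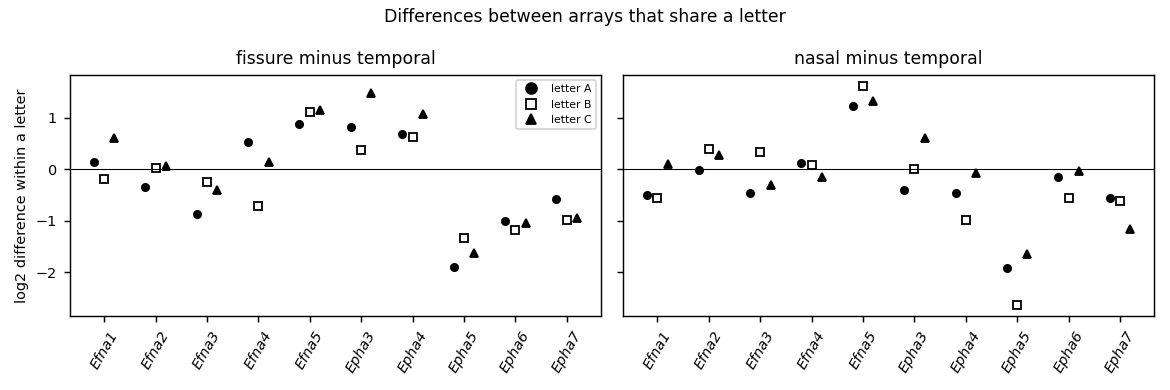
Log2 difference (vertical axis) between arrays that share a letter, for fissure minus temporal and nasal minus temporal cup. Circles are letter A, open squares B and triangles C. Efna5 lies above 0 and Epha5, Epha6 and Epha7 lie below 0 for all 3 letters in both panels, with the Epha6 differences in the right panel between -0.55 and -0.04.

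The ligands other than Efna5 gave no call in any comparison with the arrays weighted equally, and Efna1 and Efna3 were called when arrays were weighted by their quality. Efna1, first described as a gene induced in blood vessel lining cells by an inflammatory signal, read 30.1, 19.1 and 31.4 in the fissure, 13.6, 11.2 and 17.2 in nasal and 25.6, 23.9 and 14.9 in temporal cup. The fissure arrays lay above the nasal arrays without overlap, with a change of 0.51 (SE 0.18, 95% interval 0.11 to 0.91, limma adjusted p = 0.144), or 0.64 without fissure array B (adjusted p = 0.0512). With array weights it was 0.60 (adjusted p = 0.0115), and the change against the mean of both was 0.41 (adjusted p = 0.0190). Over all tested genes, fissure and nasal arrays did not overlap for 22.5%. Endothelial markers, summed, read 508.9 to 992.3 in the fissure, 420.2 to 600.2 in nasal and 499.2 to 715.5 in temporal cup, and their part in the Efna1 values was not tested.

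Efna2, which in mouse acts together with Efna5 in the midbrain target of retinal axons, read 81.7, 59.6 and 86.2 in the fissure, 106.9, 81.9 and 102.4 in nasal and 107.1, 58.2 and 82.0 in temporal cup, and the regions overlapped. Its change against the mean was -0.06 without fissure array B (adjusted p = 0.865). Its second probe set, 1417521_at, read 20.5, 21.3 and 15.5 in the fissure, 26.8, 36.1 and 35.6 in nasal and 23.6, 18.5 and 26.2 in temporal cup. There the nasal arrays lay above both other regions. The differences were 0.33 for nasal minus temporal (SE 0.16, limma adjusted p = 0.9999) and -0.47 for fissure minus nasal (SE 0.16, adjusted p = 0.169).

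Efna3 read 16.9, 26.2 and 36.9 in the fissure, 27.6, 47.6 and 40.3 in nasal and 43.7, 34.0 and 53.8 in temporal cup. On this probe set the change for fissure minus temporal was -0.50 (SE 0.22, 95% interval -0.98 to -0.02, limma adjusted p = 0.248), or -0.51 without fissure array B (adjusted p = 0.225). With array weights it was -0.70 (adjusted p = 0.0179), with -0.58 against the mean of both (adjusted p = 0.0181). On a second probe set, 1455344_at, the fissure arrays lay below the nasal arrays without overlap, with a change of -0.53 (SE 0.21, adjusted p = 0.248). The probe sets disagreed in sign between nasal and temporal cup, with -0.14 (SE 0.22) on the main probe set and 0.36 (SE 0.21) on 1455344_at, neither of them called. Efna4 read 49.6, 31.7 and 43.6 in the fissure, 33.9, 67.2 and 32.7 in nasal and 29.6, 62.4 and 37.6 in temporal cup. Array B was the lowest of the fissure arrays and the highest in nasal and in temporal cup. The 95% interval of the Efna4 change for fissure minus nasal ran from -0.60 to 0.52. It was 0.09 without fissure array B (adjusted p = 0.869). In RefSeq's gene order, Efna1, Efna3 and Efna4 lie close together on chromosome 3, with Efna5 on chromosome 17 and Efna2 on chromosome 10.

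The genes whose values over the 9 arrays ran most like a called member were taken as the 3 with the highest Pearson correlation of log2(intensity + 16). These correlations are descriptions, since the 9 arrays fall into 3 regions and share letters. For Epha5 they were Foxd1 (0.97), Prss23 (0.92) and Ccdc85a (0.90). Foxd1, the transcription factor of the temporal retina, read 4.5, 4.3 and 8.5 in nasal against 849.7, 913.9 and 1004.4 in temporal cup, with a nasal-minus-temporal difference of -5.43 (SE 0.29, limma adjusted p = 7.72e-06). In the fissure it read 28.6, 102.5 and 48.1, and array B was the highest of the fissure arrays for Foxd1 as for Epha5. Prss23, a secreted protease, had means of 1006.9 ± 64.5 in nasal and 1829.9 ± 251.9 in temporal cup (SD, n = 3 each), with no call between them (-0.85, adjusted p = 0.244).

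**Figure D5:**
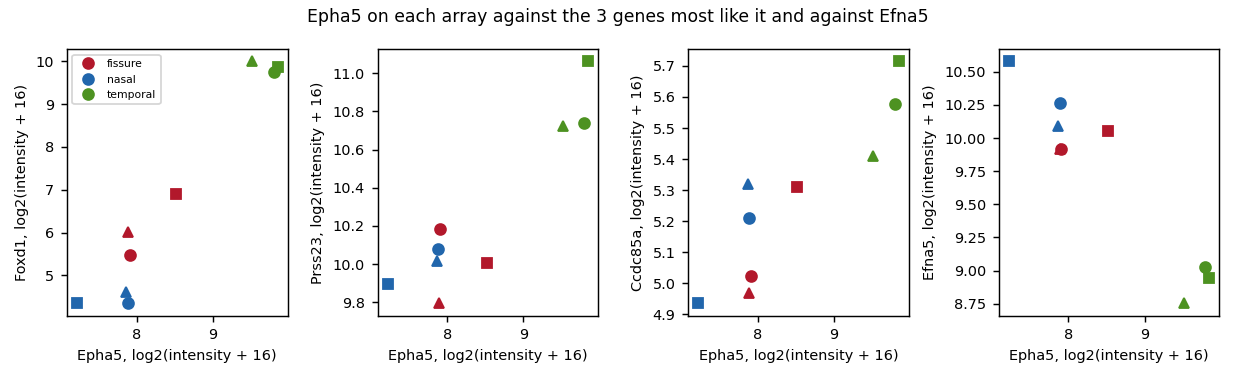
Epha5 (horizontal axis) against Foxd1, Prss23, Ccdc85a and Efna5 (vertical axes), all as log2(intensity + 16), on the 9 arrays. Red is fissure, blue nasal and green temporal, with circles for array A, squares for B and triangles for C; fissure arrays A and C nearly coincide in the Efna5 panel. Temporal arrays sit at the right in every panel, and fissure array B lies between the other fissure arrays and the temporal arrays for Epha5.

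For Efna5 the most alike genes were A730056A06Rik (0.94), Tmem178 (0.91) and Gpc6 (0.88), a cell surface heparan sulfate proteoglycan. A730056A06Rik was dim, at 13.3, 16.8 and 18.6 in the fissure, 13.3, 19.7 and 21.8 in nasal and 2.2, 2.8 and 0.5 in temporal cup. Its temporal values were under the intensity cut-off for testing. Gpc6 had means of 1020.6 ± 122.7 in fissure samples, 1041.0 ± 198.7 in nasal and 727.3 ± 117.4 in temporal cup (SD, n = 3 each), and was called in no comparison. For Epha4 they were Blvra (0.96), Six3os1 (0.95) and Chrdl1 (0.95), a secreted BMP antagonist. For Epha3 they were Ankrd50 (0.98), Ptprj (0.97) and Emx2 (0.97), a homeobox transcription factor. For Epha6 they were Cyp26a1 (0.98), Jag1 (0.97) and Pid1 (0.97). Cyp26a1, an enzyme that degrades retinoic acid, had means of 11.8 ± 1.9 in fissure samples, 284.3 ± 111.8 in nasal and 400.3 ± 165.1 in temporal cup (SD, n = 3 each). Jag1, a Notch ligand, averaged 224.6 ± 47.3 in fissure samples, 976.8 ± 222.2 in nasal and 1130.7 ± 370.2 in temporal cup (SD, n = 3 each). For Epha7 they were Wnt3a (0.91), Insig2 (0.90) and F10 (0.89). Wnt3a was dim, at 9.6, 2.7 and 9.4 in the fissure, 15.4, 16.9 and 5.4 in nasal and 21.7, 21.5 and 22 in temporal cup. F10 was dim too, at 10.5 to 29.3 on the arrays. The likeness of Wnt3a and F10 to Epha7 therefore rests on values close to or under the intensity cut-off for testing.

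Of the other Eph receptors and ephrins, 11 of 12 genes had a probe set with 1 symbol and 8 were tested. In the fissure, relative to both other regions, 1 was higher and none lower, and 7 had no call, beside 8.6% of all tested genes called. The gene was Ephb1, a receptor of B-type ephrins known in mouse for turning ventral retinal axons at the optic chiasm. It read 31.6, 45.5 and 26.4 in the fissure, 16.2, 9.8 and 12.8 in nasal and 8.4, 21.9 and 12.2 in temporal cup, with no overlap between the fissure and the others. Of the arrays on which Ephb1 exceeded the 40th percentile, 3 were fissure arrays and the other was temporal array B, so it entered the test mainly through the fissure. Its change was 0.77 (SE 0.18, limma adjusted p = 0.0193), and against temporal cup 0.75 (adjusted p = 0.0585, or 0.0282 with the block). Leaving out fissure array B gave 0.62 against the mean, and the call was lost (adjusted p = 0.0514). The 1 gene of this list called without that array was Epha2, at 0.77 (adjusted p = 0.0411). Between nasal and temporal cup limma called 0 of the 8, with or without the block, and 0 had an unadjusted p below 0.05. The median change of the 8 was 0.21 against the mean, beside 0.04 over all tested genes.

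Among genes whose products work with Eph receptors (sheddase, phosphatases, exchange factors, kinases and adaptors), 34 of 36 had a probe set with 1 symbol. All 34 were tested. Of these, 2 were higher and 2 lower in each fissure comparison. Of all tested genes, 8.6% were called against the mean of both, 6.37% against nasal and 5.36% against temporal cup. The higher genes were Ntrk2, a neurotrophin receptor known in chick to act with ephrin-A proteins, at 0.99 against the mean of both (SE 0.17, limma adjusted p = 0.00408), and Ptpro, a phosphatase known in chick to act on Eph receptors, at 0.78 (SE 0.16, adjusted p = 0.0104). The lower genes were Vav3, an exchange factor for small GTPases, at -1.04 (SE 0.17, adjusted p = 0.00280), and Anks1b, of a family of adaptors that bind EphA receptors, at -1.38 (SE 0.18, adjusted p = 0.000614). Ntrk2 read 249.3, 225.6 and 271.3 in the fissure, 118.9, 87.2 and 153.3 in nasal and 111.5, 140.1 and 100 in temporal cup. Anks1b read 4.2, 0.8 and 2.2 in the fissure, 34.0, 36.7 and 17.9 in nasal and 32.7, 47.6 and 27.5 in temporal cup. Its fissure values lay below the 40th percentile of their arrays, so Anks1b entered the test through its nasal and temporal values alone. For all 4 genes the fissure arrays did not overlap the others. Without fissure array B the 4 genes kept their calls in the 3 fissure comparisons, with changes against the mean of 1.06 for Ntrk2, 0.77 for Ptpro, -1.06 for Vav3 and -1.32 for Anks1b. With the block, Crk, an adaptor protein, was called lower as well against the mean (-0.43, adjusted p = 0.183 without the block and 0.0404 with it) and against temporal cup (adjusted p = 0.221 and 0.0477). Between nasal and temporal cup limma called 0 of the 34, with or without the block, and 0 had an unadjusted p below 0.05.

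Of 12 regulators of the nasal-temporal and dorsal-ventral axes, 11 were tested. Of these, 4 were higher and 2 lower in the fissure than the mean of both other regions, beside 5.72% higher and 2.88% lower over all tested genes. Foxd1 was the only one called between nasal and temporal cup. Hmx1, known as a nasal homeobox gene in the retina, read 249.4, 291.9 and 561.6 in nasal and 104.8, 70.5 and 72.2 in temporal cup, without overlap. Its nasal-minus-temporal difference was 1.89 (SE 0.33, limma adjusted p = 0.135, or 0.0426 with the block). In the fissure it read 721.6, 377.6 and 829.5, a change of 2.69 against temporal cup (adjusted p = 0.000594), or 3.02 without fissure array B (adjusted p = 0.000234). Foxd2 had a nasal-minus-temporal difference of -0.10 (SE 0.18, 95% interval -0.50 to 0.30). Vax2, a homeobox gene of the ventral retina that is known to shape Eph and ephrin levels there, was higher in the fissure by 1.085 against the mean (SE 0.19, adjusted p = 0.00482, or 1.31 and 0.00131 without fissure array B), with 928.5, 524.2 and 778.5 in the fissure, 284.4, 373.1 and 286.3 in nasal and 430.3, 300.1 and 346.1 in temporal cup.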

How the data were processed

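Transcript levels were measured in 9 samples from 3 regions of the E11.5 mouse optic cup. The authors deposited probe set intensity values on a linear scale for 45101 probe sets; how probes were summarised was not stated in the labels used here. The mean after trimming 2% from each end was 150.0 on every array, so the deposited intensities were used without further scaling. The number of arrays limits the precision, and no detection calls were used.

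Probe sets were named from the platform annotation: 34945 had 1 symbol, 932 several and 9160 none, with 64 controls. Genes were kept for testing where the brightest probe set exceeded the 40th percentile of intensities on 3 or more arrays (12770 genes). limma 3.58.1 (lmFit, eBayes; R 4.3.3) was run on log2(intensity + 16) over the 9 arrays with a term for each region, with Benjamini-Hochberg adjustment over all tested genes; all adjusted p-values come from it. The same fit was made over all tested probe sets with 1 symbol. The fit was tested on simulated data.

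Whether letters pair samples was checked on each array's deviation from its region mean, which correlated at 0.166 to 0.487 for the 9 same-letter pairs and at -0.438 to 0.218 for the 18 others. Every same-letter pair exceeded 0.1, as did 2 of the others, so letters were taken to pair samples, from the data and not the labels. The main fit has no such block, and calls come from it unless another fit is named. Values with the letter as a block are printed where they change a stated call or count of called genes. They are not printed gene by gene for the genes most like a member. The members, the lists and the rule for named genes (all members; called genes of 2 pathway lists, at most 6 per list and comparison; 5 regulators; the 3 genes most like each called member) were chosen with earlier results of these data known. Alternatives covered the filter, quantile normalization, the added constant, the probe set summary, the block, array weights, the variance estimate, which regions were fitted, the Gapdh ratio of 3′ to 5′ signal and a poly-A spike as covariates, and leaving out arrays. Promoters came from RefSeq (GRCm38.p6). Figures were drawn with matplotlib 3.10.9.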

Additional observations from a re-analysis of the deposited data

How the results depend on the processing

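Of the 10 members, 3, 2, 4 and 2 were called for fissure against the mean of both, against nasal, against temporal and for nasal against temporal. Array weights moved the first 3 counts to 6, 4 and 7. Against nasal cup, the 60th-percentile filter and an added constant of 64 each left 1. For nasal against temporal, averaging over the probe sets of a gene, fitting only those regions and leaving out all arrays of letter B each left 1. Leaving out 1 array gave 1 to 4, 2 to 3, 3 to 5 and 0 to 2 members; it was 1 in the first without fissure array A and 0 in the last without temporal array A or B. Over all genes, the counts under the alternatives ran from 476 to 4100, 420 to 2675, 287 to 3133 and 2 to 17, beside 1098, 814, 685 and 6. The cause of these shifts was not tested.

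Every reversal was in a comparison in which that member had no call. Efna4 reversed under array weights at 0.26, 0.20 and 0.32 in the 3 fissure comparisons, without letter B at 0.34, 0.34 and 0.34 (and at -0.00415 for nasal minus temporal), with the Gapdh ratio at 0.057, 0.036 and 0.077, and with the poly-A spike at 0.00024 against the mean and 0.017 against temporal cup. Epha7 against nasal cup was at 0.031 with array weights, 0.0888 without letter B and 0.13 with the poly-A spike. For nasal minus temporal, averaging over probe sets gave 0.11 for Efna3 and -0.020 for Epha3, and array weights gave -0.14 for Epha3. Leaving out 1 array gave -0.13 to 0.10, -0.17 to 0.21 and -0.18 to 0.21 for Efna4 in the 3 fissure comparisons and -0.23 to 0.25 for nasal minus temporal. It gave -0.27 to 0.041 for Epha7 against nasal and -0.27 to 0.095 for Efna2 against temporal cup, and -0.26 to 0.013 for Efna3 and -0.072 to 0.26 for Epha3 between nasal and temporal cup.

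Epha3 against the mean lost its call in 13 of 21 alternatives, Epha7 against temporal cup in 7 of 22 and Efna5 for nasal minus temporal in 8 of 22. Epha5 for nasal minus temporal kept it in 20 of 22. The replicate block changed the call of Epha3 against nasal and against temporal cup and of Epha4 against temporal cup, as printed above, and of no other member.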
